A study of Homo sapiens with 18 samples.

Results

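The hyaluronan matrix genes described here are HAS1, HAS2, HAS3, TNFAIP6, PTX3, VCAN, CD44, HAPLN1 and HMMR, and they were followed as every probe set of the array whose annotation names one of these 9 genes alone. This rule gave 31 probe sets of 8 genes, out of 54613 probe sets tested and 19775 genes named by a probe set of their own. HAS1 had no such probe set in the annotation used and was not analysed here, and 1 probe set that lists HAS3 with a neighbouring gene was left out. The samples were 18 cultures of SKOV-3, an established human ovarian carcinoma line, measured on Affymetrix U133 Plus 2.0 arrays with 3 replicate arrays in each of 6 groups. LHR+ cells were SKOV-3 cells stably transfected to express the luteinizing hormone receptor, and they were either left without LH or incubated with LH at 50 ng/ml for 1 h (LH1), 4 h (LH4), 8 h (LH8) or 20 h (LH20). LHR- cells carried no receptor, and the study calls them the parent line in its methods and mock-transfected cells in its legends. Effects of the receptor, of transfection and of selection therefore cannot be told apart in LHR+/LHR-. The LHR+ cells without LH were 1 group with no time-matched cultures, so LH and time in culture cannot be told apart either, and all 4 LH times were set against the same 3 LHR+ arrays.

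Hyaluronan is a long unbranched sugar polymer that synthases in the plasma membrane extrude into the space around the cell. In the ovary, the LH surge leads cumulus cells to make a hyaluronan coat around the oocyte before ovulation. The coat holds together because TNFAIP6 transfers heavy chains of inter-alpha-inhibitor onto hyaluronan, PTX3 binds several of these chains at once, and versican and link protein attach along the polymer, while CD44 and HMMR bind it on the cell side.

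Values are the authors' probe set intensities on a linear scale, and fold changes are differences of mean log2(intensity + 1) with their standard error (SE). Intensities of different probe sets were not compared as amounts of RNA. A change was called with p under 0.05, a Benjamini-Hochberg adjusted p under 0.1 over all probe sets in limma, at least 2-fold change, and no overlap between the 3 arrays of either group. The median intensity of an array was 46.7 to 57.7, a share of 31.0% to 34.5% fell under 16, and replicate arrays of a group correlated at 0.958 to 0.965 over all probe sets. The receptor gene LHCGR has 1 probe set, which read 0.344 to 1.57 in LHR+ arrays without LH, 0.196 to 4.11 in arrays with LH and 0.383 to 0.978 in LHR- arrays. It did not separate LHR+ from LHR- cells, and whether its probes lie within the transfected sequence is not known, so it gave no check of the labels. Of the cell type markers, 6 of 8 epithelial, 6 of 8 fibroblast and 2 of 6 granulosa genes had a mean above that of the median probe set, 52.3, whereas none of 6 blood cell genes (5 of leukocytes and the hemoglobin gene HBB) and none of 5 endothelial genes did. The granulosa genes FOXL2 and FSHR stayed at or below 15.7 and 13.4 on every array, while HSD17B1 had a median of 556 and INHBB of 91.4. The summed granulosa list was 711 to 833 in LHR+ arrays and 512 to 529 in LHR- arrays, with INHBB called up (2.42).

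Called changes fell into 3 patterns. Between LHR+ and LHR- cells, 8 of the 31 probe sets (25.8%) were called, against 3.36% of all probe sets. The 2 called up were of VCAN and the 6 called down of TNFAIP6, PTX3 and HAPLN1, against 1.85% up and 1.52% down of all probe sets. At LH4, HAS2 and 1 dim CD44 probe set were up-regulated and HMMR was down-regulated, 5 of 31 probe sets (16.1%, 3 up and 2 down) against 1.89% of all probe sets (1.27% up and 0.623% down). At LH20, 3 VCAN probe sets were up-regulated (9.68%), a share not far from the 7.06% of all probe sets called there, of which 3.64% were called up. No member met the full rule for a call at LH1 or LH8, where 0.482% and 1.52% of all probe sets did. In limma, 4 and 8 of the 31 had an unadjusted p under 0.05 at these times. An adjusted p under 0.1 was reached by 1 and 4 members, against 0.787% and 5.8% of all probe sets. Between LH times, 4 members were called in LH4/LH1 (1.52% of all probe sets), 2 in LH8/LH4 (1.17%) and none in LH20/LH8 (4.27%). In LH20/LH8, 8 had an unadjusted p under 0.05 and 6 an adjusted p under 0.1 (17% of all probe sets). The members with an adjusted p under 0.1 in LH1/LHR+, LH8/LHR+ and LH20/LH8 all stayed under 2-fold. In all, 15 of 31 probe sets were called in at least 1 of the 8 comparisons (12.9% of all probe sets) and 8 at an LH time against LHR+ (8.79%), and every measured gene but HAS3 had a called probe set.

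**Figure D1:**
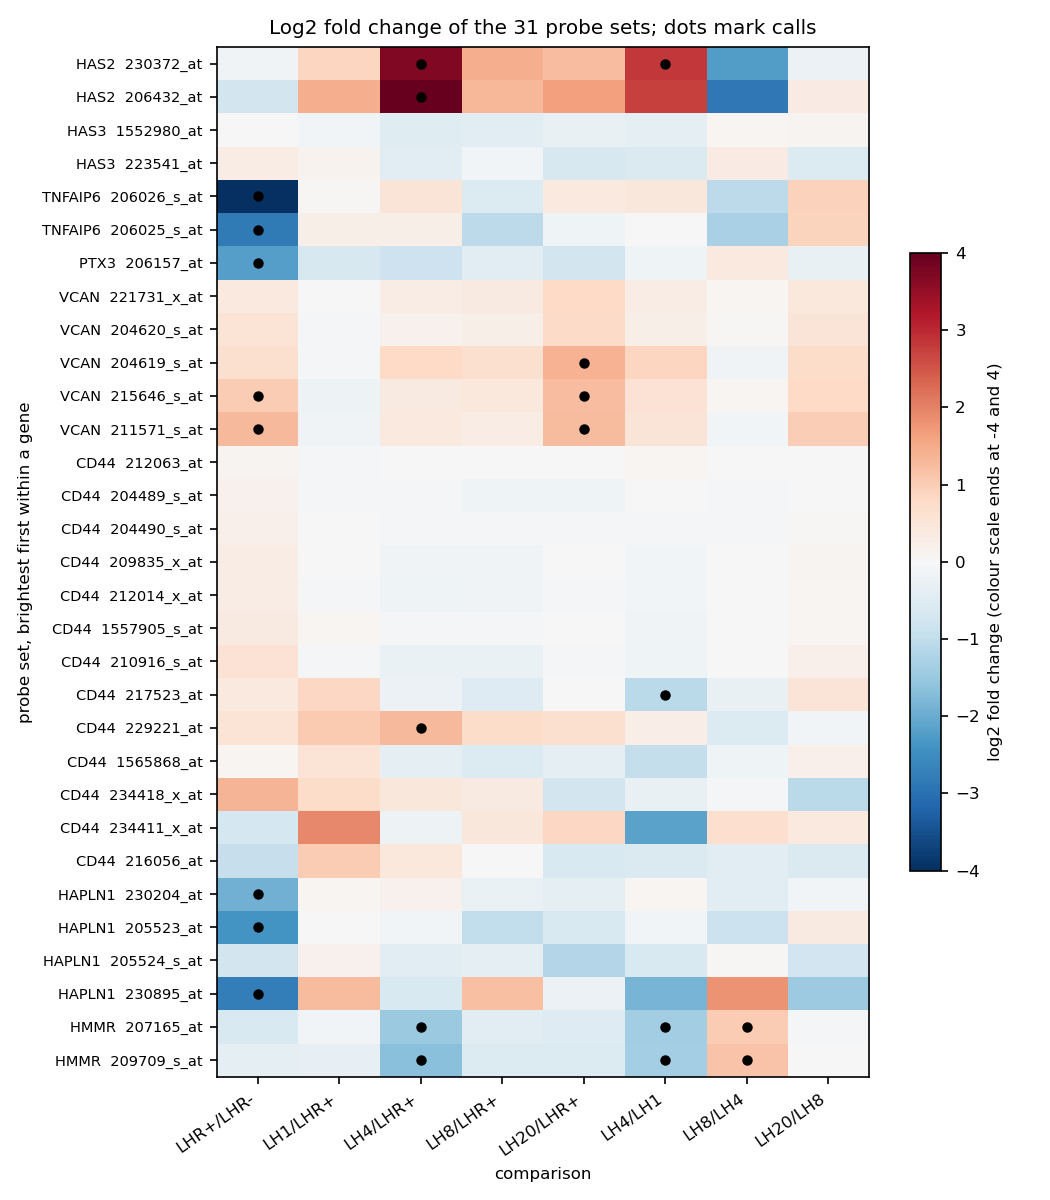
Log2 fold change of the 31 probe sets (rows, grouped by gene and brightest first within a gene) in the 8 comparisons (columns), with red for higher and blue for lower in the group named first and a dot on each call. Dots gather in the LHR+/LHR- column for TNFAIP6, PTX3 and HAPLN1, in the LH4 columns for HAS2 and HMMR, and at LH20/LHR+ for VCAN.

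The 250 bases before the RefSeq start of transcription (build GRCh38.p14) are shown for the 5 called genes whose promoters were at hand and held a match to a searched motif, since they show which short motifs genes with the same pattern have or lack. Both strands were searched, and capitals mark the matches to the cAMP response element (CRE, TGACGTCA), the 5 bases at its start (TGACG, the CRE core site), the AP-1 site (TGANTCA), the CHR element of cell cycle genes (TTTGAA), the CCAAT box (CCAAT) and the TATA box (TATAAA). The CRE core site is contained in the CRE, and no other motif of the set contains another. TNFAIP6 lies at chr2:151357342-151357591 on the plus strand, PTX3 at chr3:157436600-157436849 (plus), HAPLN1 at chr5:83720856-83721105 (minus), VCAN at chr5:83471494-83471743 (plus) and HMMR at chr5:163460382-163460631 (plus), and each is written in the direction of transcription.
TNFAIP6: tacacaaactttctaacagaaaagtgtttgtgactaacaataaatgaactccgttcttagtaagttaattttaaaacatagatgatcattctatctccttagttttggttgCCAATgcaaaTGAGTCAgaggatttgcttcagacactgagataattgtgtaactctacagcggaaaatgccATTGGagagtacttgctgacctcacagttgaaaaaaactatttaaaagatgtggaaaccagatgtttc
PTX3: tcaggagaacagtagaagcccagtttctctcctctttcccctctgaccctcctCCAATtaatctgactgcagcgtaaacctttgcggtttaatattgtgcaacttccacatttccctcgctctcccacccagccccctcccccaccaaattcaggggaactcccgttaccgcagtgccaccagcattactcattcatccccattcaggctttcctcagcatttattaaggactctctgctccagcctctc
HAPLN1: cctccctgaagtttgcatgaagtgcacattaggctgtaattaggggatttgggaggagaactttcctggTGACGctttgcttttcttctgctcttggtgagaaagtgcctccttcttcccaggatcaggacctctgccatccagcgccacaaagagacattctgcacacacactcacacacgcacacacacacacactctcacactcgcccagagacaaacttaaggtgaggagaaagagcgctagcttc
VCAN: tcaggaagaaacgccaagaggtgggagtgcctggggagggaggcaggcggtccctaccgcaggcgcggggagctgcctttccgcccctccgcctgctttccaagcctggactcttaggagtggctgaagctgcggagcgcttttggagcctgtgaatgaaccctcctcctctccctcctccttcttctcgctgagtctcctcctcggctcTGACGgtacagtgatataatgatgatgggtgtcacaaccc
HMMR: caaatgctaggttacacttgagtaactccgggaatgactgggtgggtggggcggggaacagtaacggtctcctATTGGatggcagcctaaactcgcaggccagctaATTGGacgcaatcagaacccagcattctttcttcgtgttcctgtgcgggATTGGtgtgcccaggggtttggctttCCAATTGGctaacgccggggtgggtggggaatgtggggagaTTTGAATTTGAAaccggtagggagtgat

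Of the 35116 promoters in the RefSeq set, 1.65% held a CRE, 21.2% a CRE core site, 6.57% an AP-1 site, 13.3% a CHR, 32.0% a CCAAT box and 10.7% a TATA box in the same window. None of the 5 sequences held a whole CRE. No motif of this set was common to all 3 genes that were low in LHR+ cells, though TNFAIP6 and PTX3 both held a CCAAT box. TNFAIP6 held an AP-1 site 129 bases before the start and CCAAT boxes at 139 and 68, PTX3 a CCAAT box at 197, and HAPLN1 a CRE core site at 181. VCAN held a CRE core site at 40. HMMR held 2 CHR elements at 28 and 22 and 5 CCAAT boxes at 177, 144, 95, 69 and 66, of which the last 2 overlap. At least 2 CHR elements were found in 1.72% and at least 5 CCAAT boxes in 0.319% of promoters. HAS3 and CD44 held no match to any of the 6 motifs. HAS1, which was not measured here, held a whole CRE at 69, with CRE core sites at 69 and 66 inside it, and a CHR element at 30. These are matches of letters in a short window, and no binding was measured.

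HAS2, the synthase known for making the cumulus coat, was called up-regulated at LH4 and at no other LH time. Its probe set 230372_at read 2.01, 12.4 and 7.19 in LHR+ arrays without LH, 8.90, 20.3 and 8.50 at LH1, 88.2, 96.5 and 81.6 at LH4, 10.1, 24.3 and 23.9 at LH8 and 12.1, 24.5 and 11.9 at LH20. The 3 LH4 arrays stood above every other array of the series, and the other LH times overlapped the LHR+ arrays. LH4 cells averaged 88.8 ± 7.48 and LHR+ cells 7.19 ± 5.18 (SD, n = 3 each), a log2 fold change of 3.70 (SE 0.78, adjusted p = 0.0162). LH4 was also called higher than LH1, by 2.83 (adjusted p = 0.0766), but this call was lost without LH1 replicate 1 or 3 or any 1 of the LH4 arrays (adjusted p 0.166 to 0.228). LH8 differed from LH4 by -2.23, with no overlap of the arrays but an adjusted p of 0.189.

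The other HAS2 probe set gave the same shape at lower intensities. Probe set 206432_at read 31.7, 24.4 and 33.7 at LH4, against 2.25, 0.183 and 0.306 in LHR+ arrays without LH, a log2 fold change of 4.16 (SE 0.98, adjusted p = 0.0298). At LH1, LH8 and LH20 its values ran between 0.586 and 9.77, and its LH4/LH1 difference of 2.72 was not called (adjusted p = 0.206). LHR+ and LHR- cells did not differ detectably in HAS2, with overlapping arrays for both probe sets (LHR- arrays of 230372_at read 0.959, 26.8 and 6.89). The size of the LH4 rise depends on how low intensities are treated, since adding 16 in place of 1 gave 2.20 for 230372_at and 1.44 for 206432_at with both calls kept. The call of 206432_at was lost without LHR+ replicate 2 (adjusted p = 0.111) or LHR+ replicate 3 (adjusted p = 0.103), while that of 230372_at held with any array left out. Beside this rise, the summed endothelial markers read 51.7 to 74.8 at LH4 and 26.4 to 45.9 in LHR+ arrays, with none of the 5 genes called. The same sum was 32.8 to 50.9 at LH1, 47.3 to 77.9 at LH8 and 47.2 to 58.5 at LH20, where HAS2 was not called. The part of these markers in the HAS2 rise was not tested.

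HAS3, a second synthase of the same family, had no call in the 8 comparisons with either of its 2 probe sets. The log2 fold changes of HAS3 ran from -0.65 to 0.34 over 16 values, 6 of them with an unadjusted p under 0.05. For 1552980_at, LH4 arrays read 2496, 2333 and 2570 and LHR+ arrays 3302, 3322 and 3754, which do not overlap (log2 fold change -0.49, SE 0.14, adjusted p = 0.0829, under the 2-fold threshold). For 223541_at, LH20 arrays read 146, 92.4 and 108 and LHR+ arrays 203, 150.1 and 186 (log2 fold change -0.65, SE 0.24, adjusted p = 0.0767), again without overlap. The group mean of 1552980_at was lowest at LH4 and that of 223541_at at LH20.

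**Figure D2:**
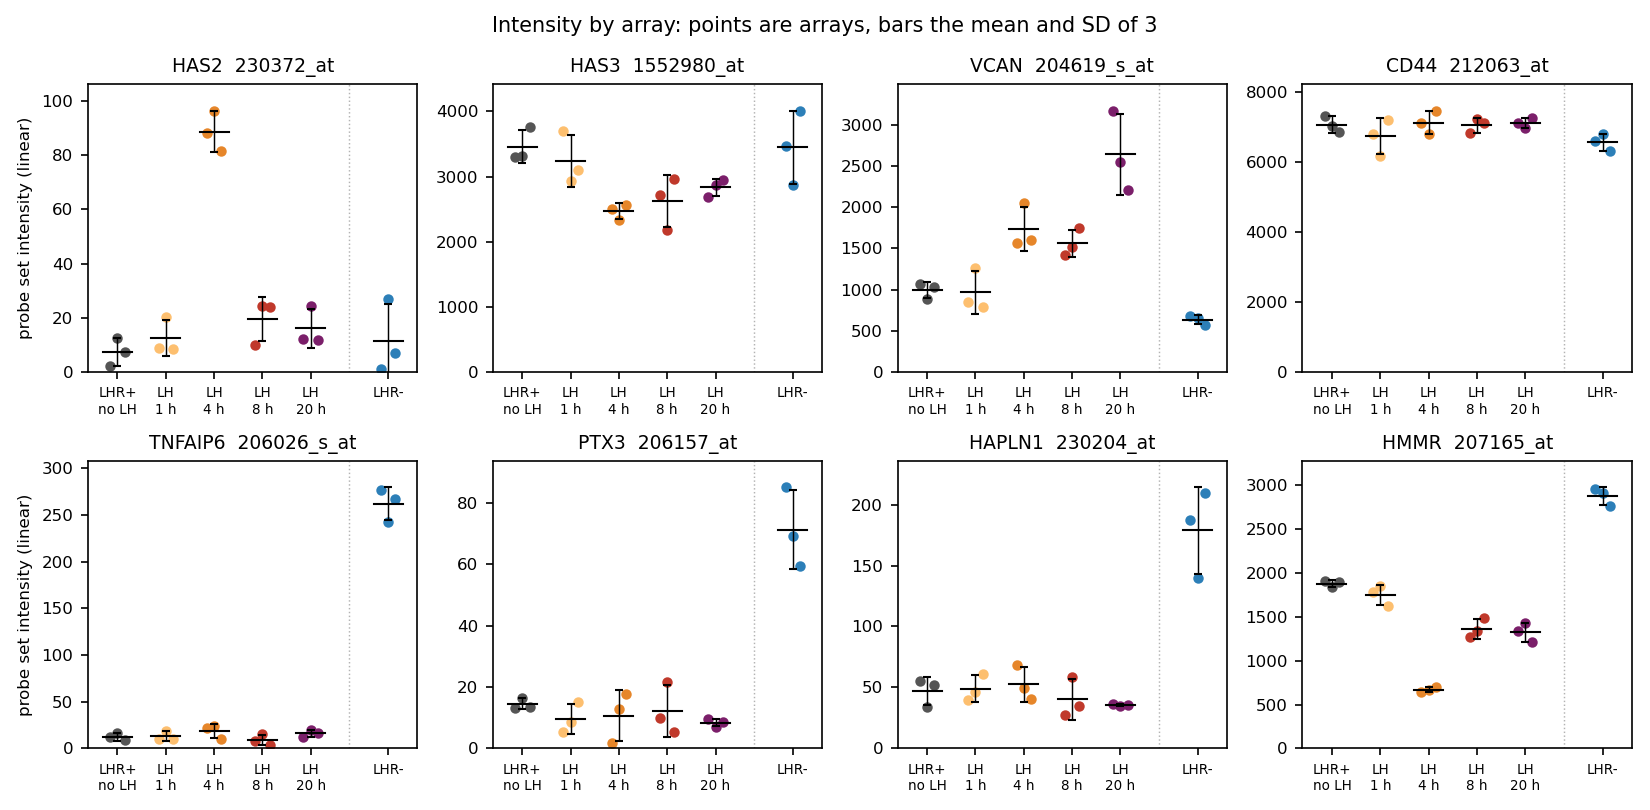
Intensity (linear axes from 0) of 1 probe set of each measured gene on all 18 arrays, with points for arrays and bars for the mean and SD of 3, where a bar that would pass below 0 ends at 0. HAS2 stands out at LH4 (81.6 to 96.5), VCAN is highest at LH20, HMMR is lowest at LH4 (642 to 695), and TNFAIP6, PTX3 and HAPLN1 are high in LHR- cells alone.

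TNFAIP6, PTX3 and HAPLN1, which cross-link or stabilize the hyaluronan coat, were down-regulated in LHR+ cells and had no call at any LH time. TNFAIP6, whose product is also called TSG-6, showed the largest difference of any member between LHR+ and LHR- cells. Its probe set 206026_s_at read 11.6, 16.5 and 8.72 in LHR+ arrays, against 276, 242 and 267 in LHR- arrays (log2 fold change -4.35, SE 0.41, adjusted p = 1.85e-05). With LH, its arrays lay between 4.05 and 23.5, below every LHR- array. The dimmer probe set 206025_s_at read 17.3, 9.52 and 1.07 in LHR+ arrays and 70.7, 33.7 and 55.3 in LHR- arrays (log2 fold change -2.82, SE 0.91, adjusted p = 0.0837), and that call was lost without any of 5 of the 6 arrays (adjusted p 0.121 to 0.296) and with only both groups in the fit (adjusted p = 0.219).

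PTX3, a pentraxin known for holding the heavy chains together, has 1 probe set. It read 13.3, 16.5 and 13.6 in LHR+ arrays and 85.1, 69.2 and 59.5 in LHR- arrays (log2 fold change -2.21, SE 0.62, adjusted p = 0.0463). The groups did not overlap, but the call was lost without LHR+ replicate 1 or 3 or LHR- replicate 1 or 2, with adjusted p between 0.110 and 0.129. Over the LH times PTX3 read 1.59 to 21.6.

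HAPLN1, the link protein that fastens lectican proteoglycans to hyaluronan, has 4 probe sets, of which 3 were called down in LHR+ cells. Probe set 230204_at read 54.9, 34.0 and 51.7 in LHR+ arrays and 188, 139.9 and 209 in LHR- arrays (log2 fold change -1.92, SE 0.29, adjusted p = 0.000864). Probe set 205523_at read 29.8, 16.4 and 24.8 in LHR+ arrays and 150.4, 116 and 109.9 in LHR- arrays (log2 fold change -2.38, adjusted p = 0.0162). The LHR+ arrays were below the LHR- arrays for both, with a gap wider than the spread within either group. Probe set 230895_at gave -2.75 (adjusted p = 0.0625), which was not called without LHR+ replicate 3 or any 1 of the LHR- arrays or with only both groups in the fit, and 205524_s_at gave -0.75 with overlapping arrays (adjusted p = 0.558).

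None of the 28 comparisons of these 7 probe sets between an LH time and LHR+ cells was called by limma, none had an unadjusted p under 0.05, and adjusted p ran from 0.211 to 1. The fibroblast marker list moved in the same direction as these 3 genes between the cell lines. Its summed intensity was 13534 to 14674 in LHR+ arrays and 29343 to 30190 in LHR- arrays, with 5 of its 8 genes called down (among them COL1A2, COL3A1, DCN and LUM, made by matrix-producing cells) and PDGFRB called up. The sum of the blood cell list, HBB included, was 39.3 to 59.4 in LHR+ and 52.9 to 66.1 in LHR- arrays, and the endothelial sum 26.4 to 45.9 and 45.5 to 58.9. The part of cells with such markers in the TNFAIP6, PTX3 and HAPLN1 difference was not tested, and in these bulk samples fewer cells of a type and less RNA per cell cannot be told apart.

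VCAN, the large proteoglycan that binds hyaluronan at one end, was higher in LHR+ than in LHR- cells and higher again at LH20, by amounts that differed between its 5 probe sets. In LHR+/LHR- the log2 fold changes were 0.38 for 221731_x_at, 0.55 for 204620_s_at, 0.64 for 204619_s_at, 1.02 for 215646_s_at and 1.29 for 211571_s_at. All 5 had LHR+ arrays above LHR- arrays, where 24.3% of all probe sets had groups that do not overlap, and the last 2 were called (adjusted p = 0.000935 and 0.00217). In LH20/LHR+ they were 0.78, 0.77, 1.40, 1.22 and 1.28 in the same order, and the last 3 were called (adjusted p = 0.000142, 8.23e-05 and 0.00086). The 2 brightest probe sets stayed under the 2-fold threshold at LH20 although their arrays did not overlap and their adjusted p was 1.15e-05 for 221731_x_at and 0.000741 for 204620_s_at.

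The arrays of 204619_s_at read 1073, 882 and 1029 in LHR+ cells, 852, 1261 and 785 at LH1, 1572, 2051 and 1598 at LH4, 1422, 1519 and 1744 at LH8 and 3176, 2549 and 2206 at LH20. LH1 overlapped the LHR+ arrays, while LH4, LH8 and LH20 each stood above them. In LHR- cells the same probe set read 685, 653 and 569.8, below every array of LHR+ cells. The LH4 difference of 204619_s_at was 0.80 (SE 0.19, adjusted p = 0.0293) and its LH8 difference 0.65 (adjusted p = 0.0821), both under 2-fold. In LH20/LH8, all 5 probe sets stood higher at LH20 without overlap, by 0.42 to 0.97 on the log2 scale with adjusted p between 0.00327 and 0.0188, and none reached 2-fold. Groups that do not overlap made up 30.1% of all probe sets there.

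**Figure D3:**
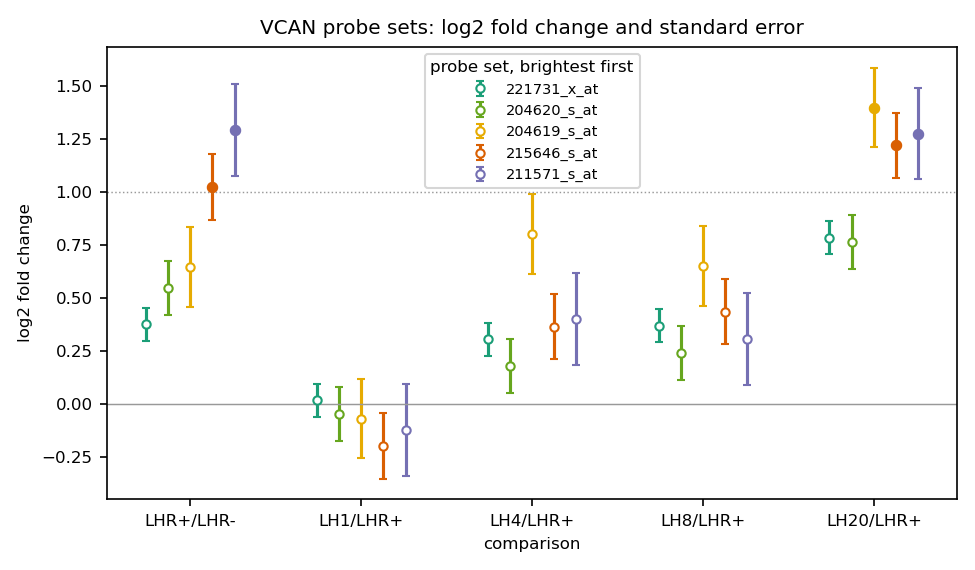
Log2 fold change of the 5 VCAN probe sets in LHR+/LHR- and at the 4 LH times against LHR+ cells, with bars for the SE, filled points for calls and a dotted line at 2-fold. The probe sets run from 0.38 to 1.29 in LHR+/LHR-, lie near 0 at LH1 and run from 0.77 to 1.40 at LH20.

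The spread between VCAN probe sets was examined per array, as the log2 difference of the probe sets with the largest and smallest change. The 2 probe sets differed by 0.92 in LHR+/LHR- and by 0.63 in LH20/LHR+ in their response, and in both comparisons the 3 differences of one group lay beyond the 3 of the other. The exact permutation p was 0.1, the smallest that 3 against 3 arrays allow (0.175 adjusted over the 7 such pairs), and the pairs were picked for their size. Which transcripts of the gene each probe set reads is not stated in the annotation used. The LHR+/LHR- call of 215646_s_at was lost under 6 alternatives, with a fold change just under 2-fold in 5 of them (16 added, both scalings, and without LHR+ replicate 3 or LHR- replicate 2) and an adjusted p of 0.102 with only both groups in the fit. That of 211571_s_at was lost with only both groups in the fit (adjusted p = 0.115), and the 3 LH20 calls held under every alternative that gave them a value. The summed fibroblast markers were also higher at LH20 (19853 to 21717, against 13534 to 14674 in LHR+ cells), with COL1A2, DCN, LUM and PDGFRA called up, and their part in the VCAN result was not tested.

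CD44, the main hyaluronan receptor of the cell surface, showed little difference with LH on its 7 brightest probe sets and called differences on 2 dimmer ones. Its 7 brightest probe sets had log2 fold changes between -0.28 and 0.07 over the 4 LH times, with none of 28 called and adjusted p between 0.245 and 0.999, and the 95% intervals of these values reached from -0.69 to 0.34. In LHR+/LHR- the same 7 ran from 0.10 to 0.58, with LHR+ arrays above LHR- arrays for each of them (24.3% of all probe sets) and adjusted p between 0.059 and 0.563, so none was called. The brightest, 212063_at, read 7333, 7030.2 and 6856 in LHR+ arrays and 6605, 6809 and 6323 in LHR- arrays.

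The CD44 probe set 217523_at, with a mean of 127 over the 18 arrays (52.3 for the median probe set), was highest at LH1. It read 122, 115 and 138 in LHR+ cells without LH, 209, 237 and 223 at LH1, 107, 141 and 79.1 at LH4, 95.7, 70.4 and 94.0 at LH8 and 112, 128 and 132 at LH20. The LH1 arrays stood above all others of the series, with a log2 fold change against LHR+ of 0.84 (SE 0.19, adjusted p = 0.0772) that missed 2-fold, and LH4 differed from LH1 by -1.06 on the log2 scale (adjusted p = 0.00531), which was called. That call was lost when 16 was added, with only both groups in the fit, and without LH4 replicate 3. Probe set 229221_at read 73.2, 72.0 and 48.8 at LH4 and 34.9, 19.9 and 23.7 in LHR+ cells (log2 fold change 1.29, SE 0.29, adjusted p = 0.0216), and this call too was lost when 16 was added (0.94) and with only both groups in the fit (adjusted p = 0.135). What part of the CD44 gene these 2 probe sets read is not given in the annotation used.

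**Figure D4:**
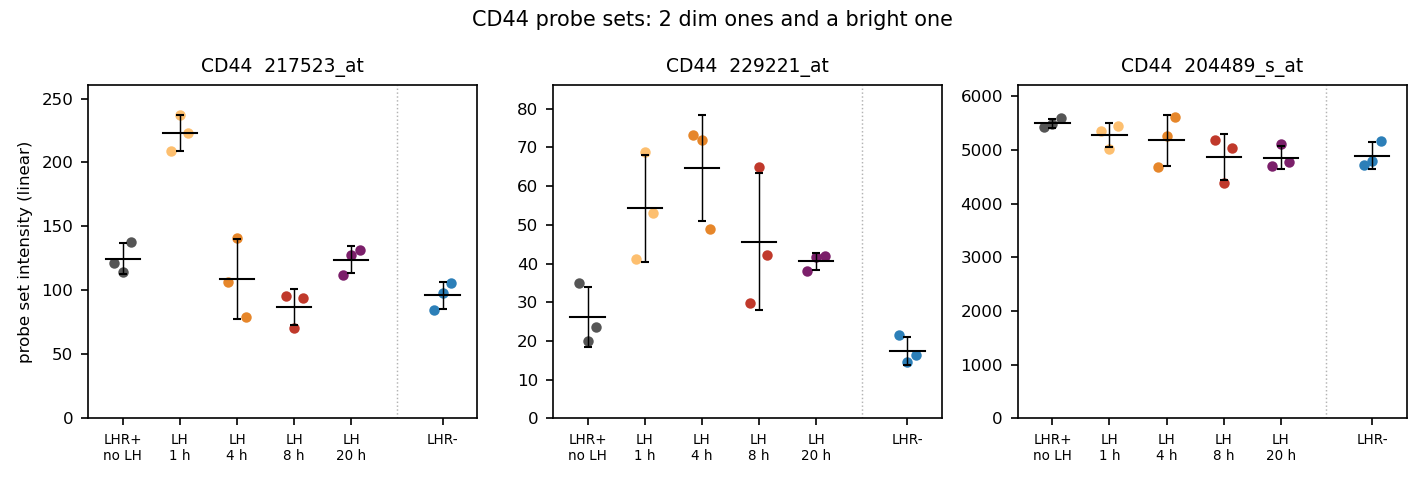
Intensity (linear axes from 0) of the dimmer CD44 probe sets 217523_at and 229221_at and of the bright 204489_s_at on the 18 arrays. Points are arrays and bars the mean and SD of 3. The first peaks at LH1 (209 to 237), the second is highest at LH4 and LH1, and the bright one differs little between groups.

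HMMR, also called RHAMM, binds hyaluronan outside the cell and the mitotic spindle inside it. It was down-regulated at LH4 on both probe sets, and was higher again at LH8. Probe set 207165_at read 1905, 1837 and 1898 in LHR+ cells without LH, 1780.4, 1852 and 1624 at LH1, 642, 666 and 695 at LH4, 1266, 1338 and 1483 at LH8 and 1336, 1427 and 1214 at LH20. The LH4 arrays lay below every other array of the series, and LH8 and LH20 lay between them and the LHR+ arrays. The log2 fold change at LH4 was -1.49 (SE 0.09, adjusted p = 4.55e-07) against LHR+ and -1.39 (adjusted p = 2.44e-06) against LH1, and LH8 exceeded LH4 by 1.03 (adjusted p = 0.000105).

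The second HMMR probe set, 209709_s_at, read 227, 237 and 297 at LH4 and 861, 781 and 786 in LHR+ cells without LH (log2 fold change -1.68, SE 0.14, adjusted p = 5.8e-06). At LH8 and LH20 both probe sets remained below the LHR+ arrays without overlap, by -0.47 and -0.51 for 207165_at and by -0.54 and -0.54 for 209709_s_at, under the 2-fold threshold (adjusted p between 0.00151 and 0.0461). Without overlap were 21.8% of all probe sets at LH8 and 35.2% at LH20. LHR+ cells were also lower than LHR- cells, where 207165_at read 2965, 2909 and 2771 (log2 fold change -0.62, adjusted p = 0.000993, not called). The responses of the 2 probe sets differed by 0.03 to 0.18 in the 3 comparisons with calls, with overlap of the per-array differences in each (exact permutation p 0.3 to 0.8). The LH8/LH4 call of 207165_at was lost without LH4 replicate 1 or LH8 replicate 3, where its log2 fold change was 0.998 and 0.963, just under 2-fold, and that of 209709_s_at with only both groups in the fit (adjusted p = 0.106).

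A list of 18 other spindle and cell division genes, among them TPX2, PLK1, BUB1, CENPE and DLGAP5, showed the fall at LH4 as well. Of these, 11 were called down at LH4 (median log2 fold change -1.16), 2 at LH8 (median -0.65) and 9 at LH20 (median -1.07). Of all genes, 0.809%, 0.602% and 3.74% were called down at these times, and none of the list was called up. The list was chosen with earlier results of these data known, so these counts describe it and are not a separate test. The largest falls at LH4 were those of DLGAP5 (-1.71), BUB1 (-1.67) and PLK1 (-1.57), which act at the spindle and kinetochore. In LHR+/LHR- only BUB1 was called (-1.27), where 1.88% of all genes were called down. All 18 genes of the list were lower in LHR+ cells (median log2 fold change -0.379), the others by less than 2-fold. HMMR was thus like these genes at LH4, but its LH20 values of -0.51 and -0.54 lay above the median of the list at that time. The genes with the highest Pearson correlation to 207165_at over the 18 arrays were ASPM (0.981), KIF11 (0.974) and NCAPG (0.974), and these points share the arrays and the group structure.

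**Figure D5:**
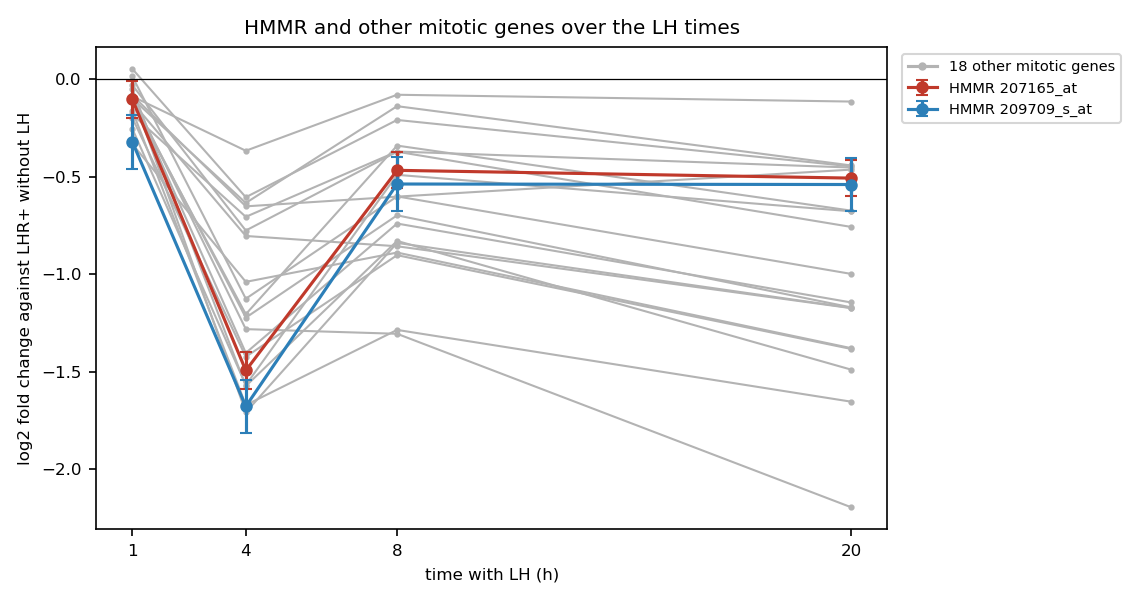
Log2 fold change against LHR+ cells without LH (vertical axis) at 1, 4, 8 and 20 h with LH (horizontal axis, linear) for the 2 HMMR probe sets with bars for the SE and for 18 other mitotic genes in grey. Both HMMR probe sets are lowest at 4 h (-1.49 and -1.68) and lie near -0.5 at 8 and 20 h, where several grey genes lie lower.

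Genes most like the other members over the 18 arrays were named by the same measure, Pearson correlation of log2 values among probe sets above the median with group means spanning at least 2-fold. For HAS2 they were PAX8 (0.855), GRAMD1B (0.835) and IL11 (0.833). For TNFAIP6 they were PKIA (0.951), BCAT1 (0.95) and SULT1E1 (0.946), for PTX3 TMEM87B (0.887), PTN (0.866) and MAD2L1 (0.863), and for HAPLN1 CYP2J2 (0.926), PHGDH (0.926) and TNC (0.922). For VCAN 204619_s_at they were MITF (0.969), RBM24 (0.961) and WDR91 (0.961), and for CD44 217523_at KLF6 (0.849), DUSP1 (0.831) and LINC00472 (0.822). None of these genes is shared between members.

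Other genes of hyaluronan metabolism, from lists of precursor synthesis, breakdown, receptors, cross-linking and versican proteolysis, had calls between the cell lines and with LH. Of 7 measured genes that make the sugar precursors, such as UGDH, none met the full rule for a call in any comparison. Some differed in limma by less than 2-fold. At LH20 against LHR+, UAP1 gave -0.68 (adjusted p = 0.000125), GNPNAT1 -0.34 (adjusted p = 0.0103) and UGDH 0.40 (adjusted p = 0.022). GFPT1 was lower in LHR+ than in LHR- cells (-0.58, adjusted p = 0.00567). Of 9 breakdown genes, CEMIP, which takes part in the depolymerization of hyaluronan, averaged 11.6 ± 6.66 in LHR+ and 123 ± 8.39 in LHR- cells (SD, n = 3 each, log2 fold change -3.49, adjusted p = 0.00704). CEMIP2, a related membrane protein, was called up in LHR+ cells at the threshold (1.00, adjusted p = 0.00013), and none of the 9 was called at an LH time against LHR+, while CEMIP was called down in LH20/LH8 (-2.32). Of all genes, 4.22% were called in LHR+/LHR-, 0.319% at LH1, 1.99% at LH4, 1.47% at LH8 and 7.45% at LH20.

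Of 10 other receptors and partners of CD44, LAYN, a membrane receptor of hyaluronan, averaged 1.72 ± 1.20 in LHR+ and 75.4 ± 12.6 in LHR- cells (log2 fold change -4.90, adjusted p = 0.000534), and TLR2 was called down as well (-2.52). At LH20, STAB2, TLR2 and SPP1 were called up, the first pair at low intensities (STAB2 26.8 ± 5.48 at LH20 and 4.83 ± 4.97 in LHR+ cells, TLR2 27.1 ± 7.30 at LH20 and 10.6 ± 7.70 in LHR+ cells). SPP1 encodes osteopontin, a ligand of CD44, and averaged 5220 ± 216 at LH20 and 2082 ± 163 in LHR+ cells (log2 fold change 1.33, adjusted p = 1.21e-05). Of 15 genes of inter-alpha-inhibitor, lecticans, link proteins and fibulins, with FBN1 among them, AMBP (1.42) and FBLN2 (1.30) were called up in LHR+ cells. At LH20 FBLN2 was called up (1.02). FBN1, a gene of none of these classes, was not called but differed in limma by less than 2-fold. It gave -0.87 in LHR+/LHR- (adjusted p = 0.000389), 0.65 at LH8 (adjusted p = 0.00696) and 0.66 at LH20 (adjusted p = 0.00118). ITIH3 was called down at LH20 near the floor of the table, with a mean of 2.94 ± 0.925 at LH20 and 20.1 ± 12.0 in LHR+ cells (adjusted p = 0.0727).

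The ADAMTS proteases that cut versican differed among themselves. ADAMTS9 was called up in LHR+ cells (1.29), at LH8 (1.02) and at LH20, where it averaged 1427 ± 68.8 against 587 ± 47.2 in LHR+ cells (log2 fold change 1.28, adjusted p = 3.34e-05). ADAMTS15 was called down in LHR+ cells (43.4 ± 32.4, against 540.4 ± 73.2 in LHR- cells, -4.12) and up at LH4 (184 ± 27.9, against 43.4 ± 32.4 in LHR+ cells, 2.57). ADAMTS1, the member of the family best known from ovulation in mice, was called down at LH20, with 1463 ± 138 against 4377 ± 139.6 in LHR+ cells (-1.58, adjusted p = 2.03e-07). The other 3 of the 6 proteases had no call in LHR+/LHR- or at an LH time. Some values differed in limma by less than 2-fold. ADAMTS5 gave 0.66 at LH8 (adjusted p = 0.00188), -0.28 at LH20 (adjusted p = 0.0689) and -0.94 in LH20/LH8 (adjusted p = 5.05e-05). ADAMTS1 gave 0.45 at LH1 (adjusted p = 0.0727).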

How the data were processed

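RNA of 18 SKOV-3 cultures was extracted, amplified as cDNA and hybridized by the authors, 1 culture per array and 3 arrays per group. The deposited values are probe set intensities on a linear scale, in a single matrix, brought by the authors to a similar level on all arrays. The labels name PLIER for the summarization and the study's methods name RMA, and versions and settings are not given in the sources used here. Raw probe intensities were not used. The design text calls the replicates independent, and p-values measure the spread between these arrays.

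Probe sets were named from the array's annotation. Of 54613 probe sets without the 62 controls, 41091 carry 1 symbol, 1801 several and 11721 none, and none of the symbols found by gene ID differed from the current one. log2(intensity + 1) was fitted with limma 3.58.1 in R 4.3.3 (with the package data.table, version 1.17.8), 1 mean for each of the 6 groups and all 18 arrays, with no filter and no replicate block, and p was adjusted over all probe sets of a comparison. The p, adjusted p and fold thresholds and the rule of no overlap are those of the study's methods, and limma was used in place of its ANOVA, which was run as an alternative, and of its Mann-Whitney test, whose exact p for 3 against 3 arrays cannot go below 0.1. For other genes, the brightest probe set stood for the gene.

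All member probe sets were eligible to be named. Of each related list, up to 3 genes called up and 3 called down were named, by size of change. These came from LHR+/LHR- and from the LH time with most calls. An exception was the list of genes known to rise with LH. There, all genes called in LHR+/LHR-, at LH4 and at LH20 were named, with some of those called at LH1 and LH8. Further genes of small counts (ADAMTS9 at LH8, ADAMTS15 at LH4, UGDH, UAP1, GNPNAT1, GFPT1, the markers) were named after their values were seen. The members and lists were chosen with earlier results of these data known. On simulated data of 54613 probe sets with 50 changed per fold size, the procedure recovered 21 (LH4/LHR+) and 22 (LHR+/LHR-) at 3-fold and 37 and 40 at 10-fold. Alternatives changed the added constant, the scaling, the filter, the fit, the thresholds and the arrays used. Promoter sequences are from RefSeq (GRCh38.p14), where 8 of the 9 genes had an entry (all but HAS2). Plots used Python 3.11.15 and matplotlib 3.10.9.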

Additional observations from a re-analysis of the deposited data

Results flagged for a closer look

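The response to LH differed between consecutive times for 4 probe sets of 3 genes, as shown by the direct limma comparison of these times. The HAS2 probe set 230372_at was higher at LH4 than at LH1 by 2.83 on the log2 scale, a call lost without any 1 of 5 of the 6 arrays (adjusted p 0.166 to 0.228). The CD44 probe set 217523_at differed between LH4 and LH1 by -1.06. For HMMR, LH4 differed from LH1 by -1.39 on 207165_at and by -1.36 on 209709_s_at, and LH8 differed from LH4 by 1.03 and 1.14. All 3 arrays of one time stood above all 3 of the other in each case. With 3 arrays a group, no search for single outlying arrays was made.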

How the results depend on the processing

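The 51 results of single probe sets kept their direction under all alternatives that gave them a value, and 11 of the 22 calls among them held throughout: HAS2 230372_at in LH4/LHR+, both HMMR probe sets in LH4/LHR+ and LH4/LH1, TNFAIP6 206026_s_at and HAPLN1 230204_at and 205523_at in LHR+/LHR-, and 3 VCAN probe sets in LH20/LHR+. Counts of called members changed as follows. With 16 added in place of 1, LH8/LH4 had 4 calls (2 in the text). With only probe sets above the median, LHR+/LHR- had 4 (8) and LH4/LHR+ 2 (5), because the 12 member probe sets below it were left out. No named call that was still tested was lost there. With 1 probe set per gene, LHR+/LHR- had 3 (8), LH4/LHR+ 2 (5), LH20/LHR+ 0 (3), LH4/LH1 2 (4) and LH8/LH4 1 (2), because fewer probe sets stood for each gene, and for VCAN the brightest stays under 2-fold. With only both groups in the fit, LHR+/LHR- had 4 (8), LH1/LHR+ 1 (0) and LH8/LH4 1 (2). Without a fold threshold, the 8 comparisons had 15 (LHR+/LHR-), 1 (LH1/LHR+), 8 (LH4/LHR+), 4 (LH8/LHR+), 8 (LH20/LHR+), 7 (LH4/LH1), 2 (LH8/LH4) and 6 (LH20/LH8), and the related lists 49 in place of 32. Equal array medians, quantile normalization and the methods' ANOVA moved no member count by over 1.5 times. The cause of the changes was not tested unless given.

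Leaving out 1 array gave 4 to 7 member calls in LHR+/LHR-, with 5 without LHR- replicate 1 and 4 without LHR- replicate 2 or LHR+ replicate 3. It gave 0 to 0 in LH1/LHR+, 4 to 5 in LH4/LHR+, 0 to 0 in LH8/LHR+, 3 to 3 in LH20/LHR+ and 3 to 5 in LH4/LH1. LH8/LH4 had 1 to 3, with 1 without LH4 replicate 1 or LH8 replicate 3, and LH20/LH8 had 0 to 2, with 2 without LH8 replicate 3 and 1 without LH8 replicate 2 or LH20 replicate 2.

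Replicate numbers did not pair the arrays (correlation of same-numbered deviations -0.2 to 0.218 over 45 pairs, 13 of them over 0.1). A fit with the replicate number as a block gave 8 member calls in LHR+/LHR-, 5 in LH4/LHR+, 3 in LH20/LHR+, 4 in LH4/LH1 and 3 in LH8/LH4, and kept every call named. Over all probe sets, the counts over 9 alternatives ran from 922 to 5668 in LHR+/LHR- (1837 in the main analysis), 64 to 430 in LH1/LHR+ (263), 446 to 3267 in LH4/LHR+ (1033), 350 to 3134 in LH8/LHR+ (831), 1536 to 12549 in LH20/LHR+ (3858), 357 to 2495 in LH4/LH1 (831), 245 to 2256 in LH8/LH4 (639) and 918 to 8963 in LH20/LH8 (2334). The highest counts came without the fold threshold and the lowest with 1 probe set per gene, except in LH8/LH4, where the fit of both groups alone gave the lowest.

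HAS2, PTX3, ITIH3, STAB2, TLR2, LAYN and the low values of TNFAIP6 and HAPLN1 lie where intensities are close to the floor of the table, so their fold changes are less precise than those of VCAN, CD44 212063_at or HMMR. In simulated data with 3 arrays a group, changes of 2-fold were often missed. The rule for a call itself demands an observed change of at least 2-fold, so these misses do not measure the number of arrays alone.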

Other observations

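A list of 18 measured genes known to rise with LH in granulosa and cumulus cells was set beside the HAS2 change. At LH20, 4 of these genes were called up and 4 down, against 7.45% of all genes called. The rises were those of PTGES, a prostaglandin E synthase (log2 fold change 3.01), RGS2, a regulator of G protein signaling (1.80), the cytokine gene IL6 (1.38) and SULT1E1 (1.08), and the falls those of BTC, a ligand of the epidermal growth factor receptor (-2.60), ADAMTS1 (-1.58), EDN2 (-1.36) and PTGER4, a prostaglandin E receptor (-1.06). Both had been called up earlier, PTGER4 at LH1 (1.31) and EDN2 at LH4 (1.17) and LH8 (1.09). At LH4, where HAS2 was high, 4 genes were called up (IL6, PTGES, RGS2 and EDN2) and PTGER4 down (1.99% of all genes called). IL6 averaged 1163 ± 106 at LH4 and 49.4 ± 8.06 in LHR+ cells (SD, n = 3 each), and had been called up at LH1 with 1668 ± 159. In LHR+/LHR-, EDN2 was called up (1.08) and SULT1E1 (-4.46), BTC (-2.31) and PTGS2 (-1.23) down, with PTGS2, the inducible cyclooxygenase, at 11.9 ± 2.86 in LHR+ and 28.9 ± 4.09 in LHR- cells. PTGS2 was not called at any LH time, nor were EREG, PTGER2, PGR, STAR, SNAP25, RUNX2, CEBPB, NRIP1 and CTSL.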
